A study of Mus musculus with 36 samples.

Results

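Cell cycle and DNA replication genes were followed through 12 RNA libraries of mouse cells that lack the histone methyltransferase MLL3 and either lack or keep its relative MLL4. The 44 genes were taken from a named list by gene symbol, out of 22456 genes that could be joined over all libraries. They fall into 8 G1 cyclins and cyclin-dependent kinases, 4 genes of S-phase and mitotic cyclins with their kinase Cdk1, 10 genes of replication licensing and the replication fork, 3 genes of deoxynucleotide synthesis, 4 transcription factors, 8 mitotic kinases, checkpoint and anaphase-promoting complex genes, and 7 genes of centromere, spindle and chromosome proteins. All 44 were measured in every library.

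D-type cyclins with Cdk4 and Cdk6, and E-type cyclins with Cdk2, carry a cell through G1 by relieving the block that RB proteins place on E2F factors. E2F then switches on the genes that load and fire replication origins and make deoxynucleotides, and later B-MYB (Mybl2), FOXM1 and the MuvB complex switch on the genes of mitosis. Mouse embryonic stem cells are known for a short G1 phase and for high cyclin E and E2F activity over most of the cycle.

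The genotypes were MLL3-/-;MLL4-/- (DKO) and MLL3-/-;MLL4flox/flox (f/f), so that the controls carry the MLL3 deletion too. Each genotype was measured as embryonic stem cells (ESC) kept with LIF on irradiated fibroblast feeders, as embryoid bodies after 4 days in suspension without LIF, as immortalised embryonic fibroblasts (MEF), and as those fibroblasts 20 days after lentiviral Oct4, Sox, Klf4 and c-MYC. The ESC and body groups had 2 libraries each, replicate 1 as RPKM and replicate 2 as FPKM (both scale reads to gene length and library depth). MEF and day-20 groups had 1 library each, as FPKM. How MLL4 was deleted, and how many lines or clones stand behind a genotype, are not stated in the labels. The labels do not call the replicates separate cultures either, and p-values then describe the spread of these libraries alone, which can be technical.

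Depth was 11366199 to 38264157 reads per library. The targeted gene Kmt2d (MLL4) stood at 8.89 and 10.7 in DKO ESC, against 13.5 and 18.7 in f/f ESC (limma, adjusted p = 0.155), and at 14.3 and 10.1 in DKO bodies, against 16.4 and 15.4 in f/f bodies (adjusted p = 0.388). It stood at 23.5 FPKM in the MEF library labelled DKO, against 14.4 in f/f, and at 24.8 in the day-20 library labelled DKO, against 12.9 in f/f, the reverse of a loss. Values over the whole transcript do not single out the deleted part, which the labels do not name, and so check no genotype label. Kmt2c (MLL3), deleted in all groups, stood at 1.8 to 3.44 in the 12 libraries. All 10 pluripotency markers were above 1 in the ESC and body libraries. At day 20 they summed to 10.5 FPKM in the library labelled DKO, 9 of 10 being under 1 and 4 at 0, and to 40.4 FPKM in f/f, 6 of 10 being under 1, so these libraries are called day-20 cells here although their labels call them iPSC.

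The promoters of some groups of members differ in short motifs that are known as sites of cell cycle factors. CCAAT is the box bound by NF-Y, TTTGAA is the core of the cell cycle homology region (CHR) bound by the MuvB complex, and the E2F-type motifs searched were TTTCCCGC, TTTCGCGC, TTTGCCGC and TTTGGCGC. A RefSeq window (GRCm38.p6) from 250 bases before to 50 after the start was found for 34 of the 44 members and for 27025 genes in all, and both strands were read. The members without one were Aurkb, Ccna2, Ccnd1, Ccnd2, Ccne2, Foxm1, Gmnn, Kif20a, Mcm4 and Tpx2. An E2F-type motif lay in 6 of 8 windows of licensing and fork genes, against 2.6% of all genes. It lay in 0 of 7 of the mitotic kinase and checkpoint group and 0 of 5 of the centromere and spindle group. The G1 group had it in 1 of 5, the cyclin and Cdk1 group in 1 of 3 and the transcription factors in 1 of 3. The deoxynucleotide group had it in 0 of 3. TTTGAA lay in 1 of 8 licensing and fork windows, in 5 of 7 of the mitotic kinase and checkpoint group and in 4 of 5 of the centromere and spindle group, against 20.2% of all genes. CCAAT lay in 25 of 34 members, against 41.1% of all genes. A match is a run of letters and not evidence of binding. Shown are the windows of a mitotic cyclin, a mitotic kinase, a replication helicase subunit and E2f2, the member called in ESC, with motifs of either strand in capitals:

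Ccnb2 (chr9:70421505-70421804, minus strand): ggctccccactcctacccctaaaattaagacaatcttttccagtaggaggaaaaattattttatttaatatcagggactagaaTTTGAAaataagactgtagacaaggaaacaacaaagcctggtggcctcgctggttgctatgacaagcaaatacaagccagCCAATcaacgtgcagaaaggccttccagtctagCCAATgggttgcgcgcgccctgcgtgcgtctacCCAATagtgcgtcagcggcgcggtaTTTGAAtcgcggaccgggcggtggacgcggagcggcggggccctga

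Plk1 (chr7:122159185-122159484, plus strand): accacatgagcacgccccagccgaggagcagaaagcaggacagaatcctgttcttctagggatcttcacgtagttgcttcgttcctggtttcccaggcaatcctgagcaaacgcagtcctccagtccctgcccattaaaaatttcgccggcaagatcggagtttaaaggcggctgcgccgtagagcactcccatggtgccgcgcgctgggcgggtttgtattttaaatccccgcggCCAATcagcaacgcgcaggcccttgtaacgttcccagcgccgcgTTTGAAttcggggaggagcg

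Mcm3 (chr1:20820263-20820562, minus strand): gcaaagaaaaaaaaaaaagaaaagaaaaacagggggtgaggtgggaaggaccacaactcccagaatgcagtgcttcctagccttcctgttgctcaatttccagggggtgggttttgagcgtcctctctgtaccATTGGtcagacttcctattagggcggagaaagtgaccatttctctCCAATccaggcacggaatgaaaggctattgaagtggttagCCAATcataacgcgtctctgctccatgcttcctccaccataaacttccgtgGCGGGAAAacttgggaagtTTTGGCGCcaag

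E2f2 (chr4:136172024-136172323, plus strand): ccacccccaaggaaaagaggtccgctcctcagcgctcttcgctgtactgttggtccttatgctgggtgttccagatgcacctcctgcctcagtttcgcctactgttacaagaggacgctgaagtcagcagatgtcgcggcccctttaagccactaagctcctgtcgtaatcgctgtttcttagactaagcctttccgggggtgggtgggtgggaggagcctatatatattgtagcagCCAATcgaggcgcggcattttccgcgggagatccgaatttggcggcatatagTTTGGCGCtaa

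Ccnb2 has 3 CCAAT boxes upstream of its start, and a TTTGAA begins 5 bases into the transcript. Plk1 pairs CCAAT with a TTTGAA that begins at base 31. In Mcm3 the E2F-type motifs, one read on each strand, begin at bases 20 and 39, and E2f2 has one at base 40. The E2f2 table entry has a second start further along the gene, which is not shown.

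Most members were abundant in ESC. Their levels ran from 5.82 RPKM (Cdk6) to 162 RPKM (Cdk4) in replicate 1 of DKO ESC and from 3.53 (E2f2) to 171 (Cdk4) in f/f ESC, with medians of 69.6 and 64 RPKM. In replicate 2 they ran from 2.39 (Ccne2) to 229 FPKM (Mybl2) in DKO ESC and from 1.73 (Ccne2) to 386 FPKM (Mybl2) in f/f ESC. The licensing and fork group had the highest median of the 7 groups in each ESC library, between 103 and 129. Levels spread widely within the G1 group: Cdk4, the kinase partner of D-type cyclins, led it at 162 to 215, while Cdk6, its close relative, stayed at 5.82 to 7.75. The tables of the 2 replicates were counted differently, and levels differed between them. Ccnb1 stood 4.94 times as high in replicate 2 as in replicate 1 of f/f ESC. Tyms stood 3.67 times, Mybl2 3.10 times and Ccne2 0.195 times as high. In bodies the Mybl2 ratio was smaller, at 50.8 and 48.3 in f/f and 66.1 and 91.7 in DKO. Ccnb1 stood at 31.1 and 150 in f/f bodies. What sets the Mybl2 ratio in ESC was not tested. Levels are therefore compared within a replicate only.

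**Figure D1:**
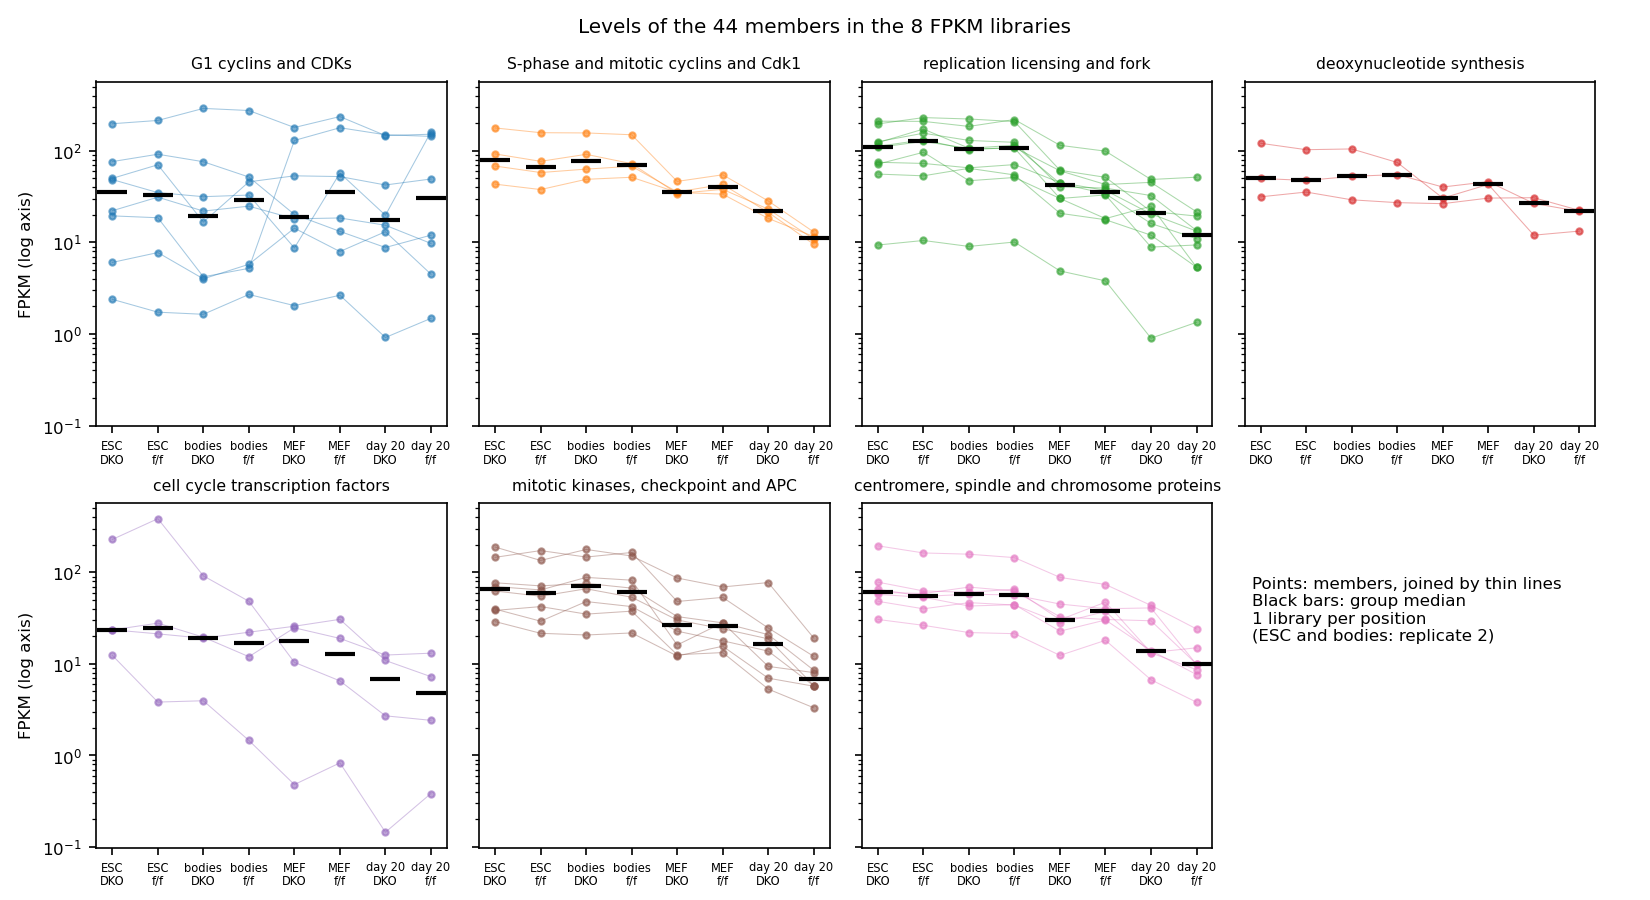
FPKM of the 44 members on a log axis in the 8 libraries that share this unit, 1 panel per group of genes; points are members, thin lines join a member, black bars are group medians, and each position is 1 library (replicate 2 for ESC and bodies). The mitotic and licensing groups step down at MEF and again at day 20, with lower day-20 medians in f/f than in the library labelled DKO; the G1 medians are 35.4, 19.1 and 17.6 in DKO and 33.1, 35.4 and 30.7 in f/f at ESC, MEF and day 20.

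The first comparison asks what loss of MLL4 changes in undifferentiated MLL3-null cells. E2f2, an activating E2F factor, was higher in DKO ESC, and it was the member called there. It stood at 17.1 and 12.4 in DKO ESC, against 3.53 and 3.83 in f/f ESC, resting on 1597 and about 1268 reads in DKO and 308 and about 391 in f/f. Within each replicate the DKO library lay above the f/f library, by 3.33-fold on average (log2(value + 1) difference 1.74 ± 0.30, SE, n = 2 per group; limma with Benjamini-Hochberg adjustment over 12466 genes, adjusted p = 0.0353). No member fell. Of all genes tested, 4.24% were called, 1.57% up and 2.67% down, so 1 of 44 is near the background share. Without a filter on low values the E2f2 call was lost (adjusted p = 0.0779), and leaving out 1 library gave adjusted p = 0.166 and 0.18 without DKO ESC replicates 1 and 2, 0.185 and 0.107 without f/f ESC replicates 1 and 2, and 0.0774 and 0.0752 without f/f body replicates 1 and 2. Without replicate 1 or without replicate 2 of DKO bodies the E2f2 difference stayed at 1.74.

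The other E2F and MYB factors showed no call in ESC. E2f1, a second activating E2F, stood at 36 and 23.5 in DKO ESC, against 33 and 27.9 in f/f ESC, with the replicates on opposite sides (-0.06 ± 0.18, adjusted p = 0.883, limma). Mybl2, which encodes B-MYB, stood at 71 and 229 in DKO ESC, against 125 and 386 in f/f ESC. Both replicates placed it lower in DKO, but its SE was wide (-0.78 ± 0.43, adjusted p = 0.363, limma). Foxm1, which acts on mitotic genes in G2, differed by 0.15 ± 0.10 (adjusted p = 0.472, limma).

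No gene of the mitotic groups was called in ESC. For scale, 40% of all genes tested were higher in DKO in both replicates and 35.1% lower in both. The A- and B-type cyclins and Cdk1, 4 of 4, and the centromere, spindle and chromosome group, 7 of 7, were higher in both replicates, by 0.14 to 0.33 and by 0.06 to 0.36 on the log2 scale, with 0 of 4 and 0 of 7 called. In the mitotic kinase and checkpoint group 6 of 8 were higher in both replicates. Ube2c, the ubiquitin-conjugating enzyme of the anaphase-promoting complex, stood at 139 and 189 in DKO ESC, against 101 and 135 in f/f ESC (0.48 ± 0.11, adjusted p = 0.0719, limma). Aurkb, the kinase of the chromosomal passenger complex, stood at 50.6 and 39.7 in DKO ESC, against 37.1 and 29.3 in f/f ESC (0.43 ± 0.10, adjusted p = 0.0637, limma). Within each replicate both genes were higher in the DKO library, and both narrowly missed the threshold. Bub1, a spindle checkpoint kinase, differed least of its group (0.01 ± 0.14, adjusted p = 0.981, limma). Ccnb2, a B-type cyclin, stood at 90.4 and 92.6 in DKO ESC, against 69 and 76.9 in f/f ESC (adjusted p = 0.226, limma), and Ccnb1 differed least of the cyclin group (0.14 ± 0.09). Mki67, the gene of the proliferation antigen Ki-67, stood at 68.2 and 78.2 in DKO ESC, against 51.2 and 62.7 in f/f ESC (adjusted p = 0.212, limma), while Kif11, a spindle motor, differed by 0.06 ± 0.13.

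No gene of the G1 and replication groups was called either. Of 8 G1 genes, 5 were lower in both replicates of DKO ESC and 3 higher, and of 10 licensing and fork genes 5 were lower in both, 2 higher and 3 split, with the same shares of all genes to be read beside them. Cdk2, the partner of E- and A-type cyclins, stood at 24.6 and 22.2 in DKO ESC, against 40.8 and 31.2 in f/f ESC (-0.59 ± 0.14, adjusted p = 0.073, limma). Ccnd3, the gene of cyclin D3, stood at 76.4 and 50.1 in DKO ESC, against 107 and 70.5 in f/f ESC (-0.49 ± 0.13, adjusted p = 0.0922, limma). Its relative Ccnd1 differed upward, at 47.7 and 48.6 in DKO ESC, against 32.3 and 35 in f/f ESC (0.50 ± 0.17, adjusted p = 0.148, limma). D-type cyclins thus pointed both ways within each replicate, and Cdk4, with -0.09 ± 0.16, differed least of the group. Mcm3, a subunit of the replicative helicase, was the most distant of the licensing group (135 and 123 in DKO ESC, against 156 and 173 in f/f ESC; -0.35 ± 0.11, adjusted p = 0.14, limma), and Mcm5 the nearest (-0.08 ± 0.12). Rrm2 and Tyms, which serve deoxynucleotide synthesis, differed by 0.15 ± 0.11 and 0.01 ± 0.17. Over all 44 members 26 were higher in both replicates, 11 lower in both and 7 split, with a median difference of 0.11, against 0.02 over all genes.

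**Figure D2:**
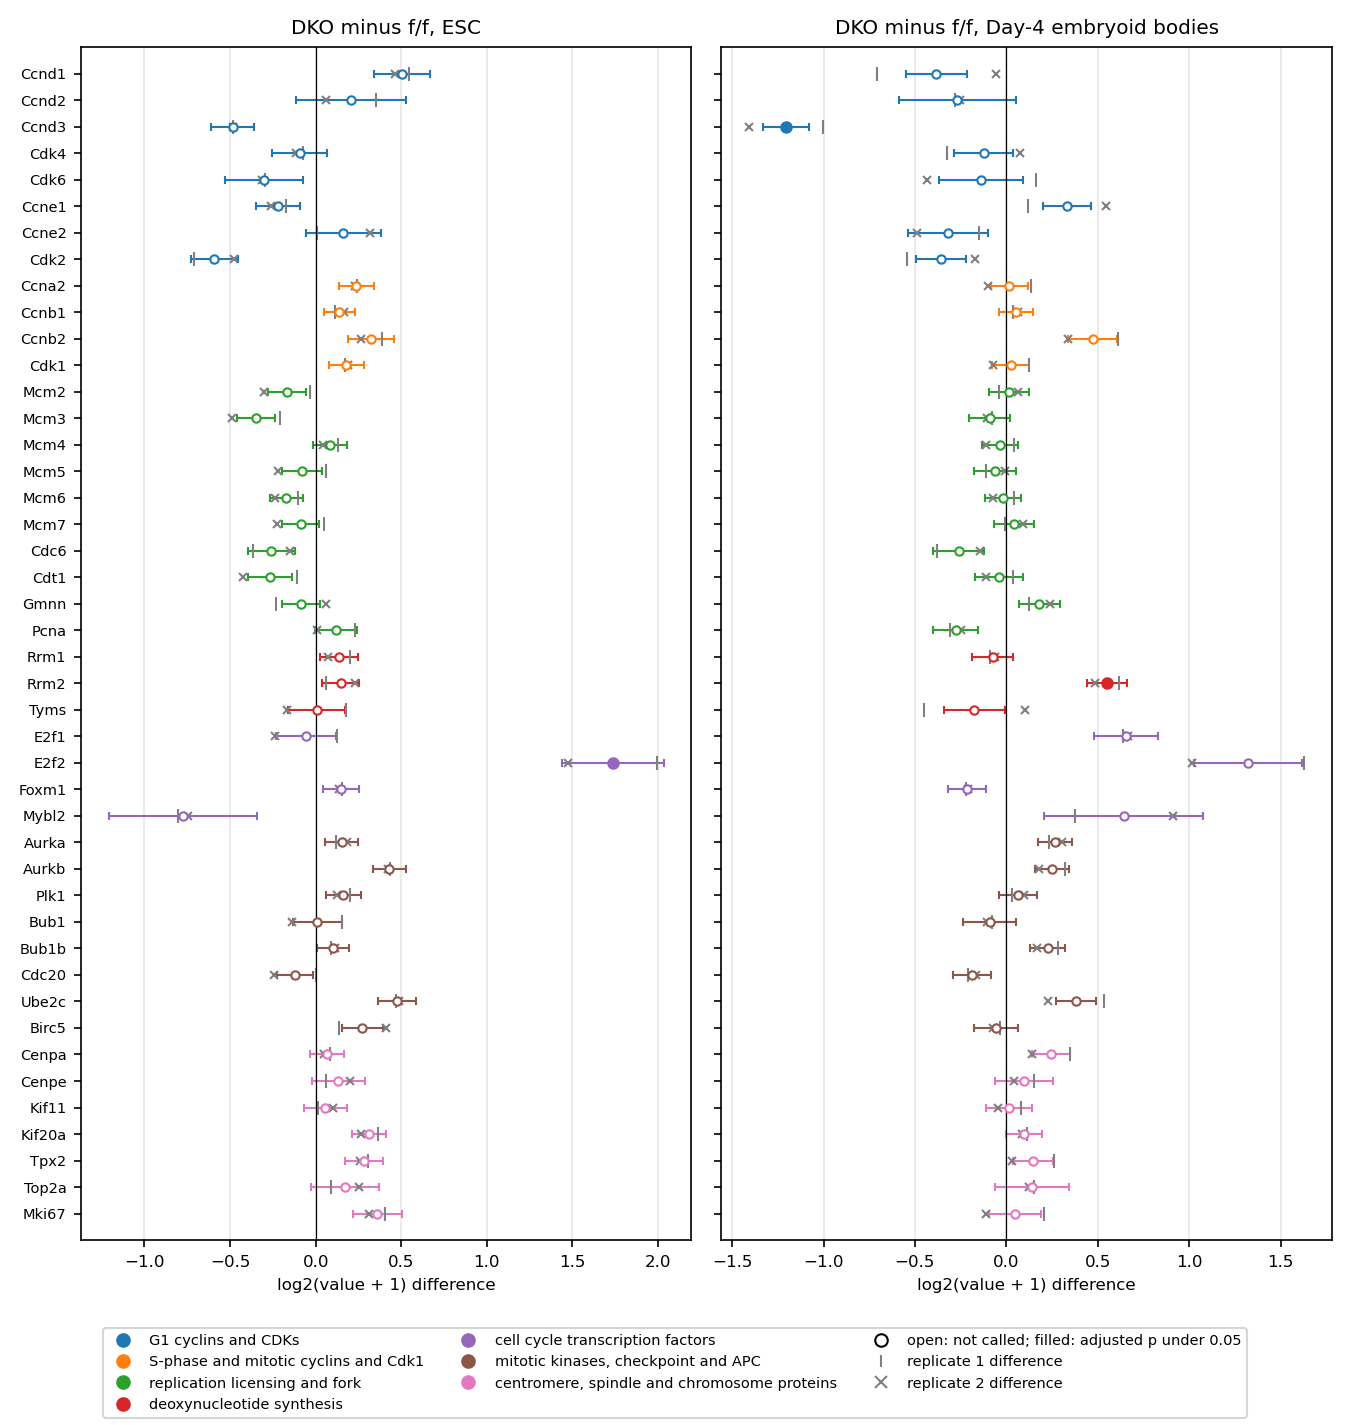
Log2(value + 1) differences, DKO minus f/f, of the 44 members in ESC (left) and day-4 bodies (right); circles with bars are the mean over 2 replicates with its SE, filled where the adjusted p is under 0.05, ticks and crosses are the differences of replicates 1 and 2. E2f2 at 1.74 in ESC and Ccnd3 at -1.20 and Rrm2 at 0.55 in bodies are filled, and most other members lie within 0.5 of 0.

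Among 122 other tested genes of the same pathways, out of 124 listed, 2 rose and 2 fell in DKO ESC, a share near the 4.24% of all genes called. Cdkn1c, the gene of the CDK inhibitor p57, stood at 66.1 and 48.7 in DKO ESC, against 16.7 and 10.6 in f/f ESC (2.01 ± 0.31, adjusted p = 0.0284, limma). E2f6, a repressive E2F without an RB-binding part, stood at 14.5 and 14.7 in DKO ESC, against 8.11 and 9.19 in f/f ESC (0.69 ± 0.13, adjusted p = 0.0446, limma). Ticrr, which is needed for origin firing, fell by 0.68 ± 0.12 (adjusted p = 0.0344, limma), and Rfc5, a subunit of the clamp loader, fell by 0.67 ± 0.12 (adjusted p = 0.0419, limma). For both, the DKO library lay below the f/f library of its replicate. Feeder cells were present in the ESC cultures. The 10 fibroblast markers summed to 55.9 and 256 in DKO ESC, against 40.6 and 295 in f/f ESC, with none at 0. Thy1 was the highest of them in replicate 1 of ESC (21 in DKO, 17.2 in f/f) and of bodies. It stood at 0.482 and 3.37 FPKM in the MEF libraries labelled DKO and f/f, so the replicate 1 sums do not follow fibroblasts alone. The part of feeder cells in these differences was not tested.

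In day-4 bodies, cyclin D3 was the member with the largest decrease in DKO against f/f. Ccnd3 stood at 32.8 and 16.7 in DKO bodies, against 66.8 and 45.9 in f/f bodies. Within each replicate the DKO library lay below the f/f library, by 2.30-fold on average (-1.20 ± 0.13, SE, n = 2 per group; limma, adjusted p = 0.0117). Rrm2, the small subunit gene of ribonucleotide reductase, which makes deoxynucleotides, stood at 120 and 105 in DKO bodies, against 77.7 and 74.7 in f/f bodies. The DKO library was the higher one in each replicate (0.55 ± 0.11, 1.46-fold; limma, adjusted p = 0.0467). These were 1 member up and 1 down of 44, against 4.44% of all genes called, 0.826% up and 3.61% down, a share near the background. The Ccnd3 call was lost without replicate 1 (adjusted p = 0.0722) or 2 (0.118) of f/f bodies. The Rrm2 call was lost with a mean of at least 5 (adjusted p = 0.0529), with no filter (0.0735) and without any 1 of the 8 libraries (adjusted p = 0.0502 to 0.263, limma). Over the 8 fits without 1 library the difference stayed between -1.38 and -1.02 for Ccnd3 and between 0.46 and 0.64 for Rrm2.

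E2f2 was called in bodies by one tool and not by the other. It stood at 10.7 and 3.96 in DKO bodies, against 2.77 and 1.46 in f/f bodies (1.32 ± 0.30, adjusted p = 0.0659, limma). The DKO library was above the f/f library of its replicate, as in ESC. With edgeR on reads E2f2 passed as well (1.76, adjusted p = 0.0472). So edgeR called 3 of the 44 members in bodies, 2 up and 1 down. Over all genes it called 493 of 12059, 115 up and 378 down. E2f1 stood at 36.1 and 19.6 in DKO bodies, against 22.9 and 12 in f/f bodies, higher in DKO within each replicate (0.65 ± 0.18, adjusted p = 0.10, limma). Mybl2, lower in DKO ESC, stood at 66.1 and 91.7 in DKO bodies, against 50.8 and 48.3 in f/f bodies (0.64 ± 0.43, adjusted p = 0.448, limma). Foxm1 differed by -0.22 ± 0.10 (adjusted p = 0.297, limma).

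Beside Ccnd3 no G1 gene was called in bodies. Of 8 G1 genes 5 were lower in DKO in both replicates, 1 higher in both and 2 split, against 36.3% of all genes lower in both and 33.9% higher in both. The median was -0.29, against -0.01 over all genes. Ccnd1 stood at 21.4 and 31.6 in DKO bodies, against 35.6 and 32.9 in f/f bodies (-0.38 ± 0.17, adjusted p = 0.259, limma), and Cdk2 differed by -0.36 ± 0.14 (adjusted p = 0.212, limma). Ccne1, with 0.33 ± 0.13 (adjusted p = 0.213, limma), was the G1 gene higher in both replicates. Cdk4 differed least of the group, at 161 and 291 in DKO bodies, against 202 and 276 in f/f bodies, with the replicates on opposite sides (adjusted p = 0.696, limma).

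Of the 10 licensing and fork genes 0 were called and 5 had replicates on opposite sides, from -0.28 ± 0.12 for Pcna, the sliding clamp of the fork, to 0.18 ± 0.11 for Gmnn, the licensing inhibitor geminin, with Mcm2 at 0.01 ± 0.11. Ccnb2 stood at 115 and 91.7 in DKO bodies, against 74.8 and 72.5 in f/f bodies (0.47 ± 0.13, adjusted p = 0.113, limma), while Ccna2, the S-phase cyclin A2, differed by 0.02 ± 0.10. Ube2c was again the most distant of the mitotic kinase and checkpoint group (0.38 ± 0.11, adjusted p = 0.122, limma), and Birc5, the gene of survivin, the nearest (-0.06 ± 0.12). Cenpa, the centromeric histone, differed by 0.24 ± 0.10 and Kif11 by 0.02 ± 0.13. Rrm1, the large subunit of ribonucleotide reductase, differed by -0.08 ± 0.11 although Rrm2 rose. Over all members 18 were higher in both replicates, 14 lower in both and 12 split, with a median of 0.02, against -0.01 over all genes. None of the 122 other pathway genes was called in this comparison, against 4.44% of all genes (limma). Primitive streak markers differed between the bodies: the 8 genes summed to 8.13 and 8.61 in DKO bodies with none at 0, against 138 and 102 in f/f bodies with none at 0, and whether the cell types present bear on Ccnd3 or Rrm2 was not tested.

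**Figure D3:**
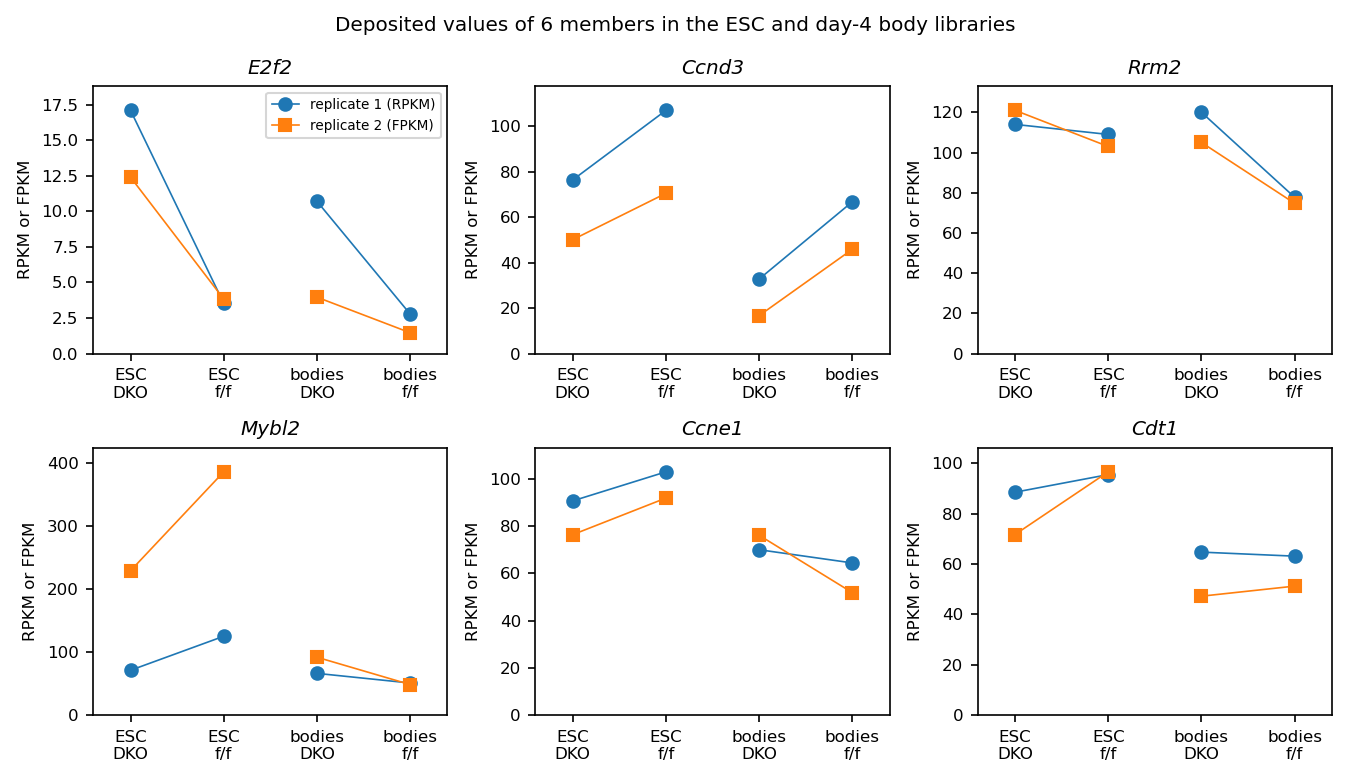
Deposited values of E2f2, Ccnd3, Rrm2, Mybl2, Ccne1 and Cdt1 in the ESC and body libraries, DKO left of f/f within each stage; circles are replicate 1 (RPKM), squares replicate 2 (FPKM), and lines join libraries of the same replicate and stage. E2f2 is higher in DKO at both stages, Ccnd3 lower, and Mybl2 drops to 50.8 and 48.3 in f/f bodies, against 125 and 386 in f/f ESC.

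The next comparison follows the members through 4 days of differentiation, first in DKO cells. There 0 members rose and 1 fell of 44, against 0.826% of all genes called, 0.201% up and 0.626% down. Ccnd3 stood at 32.8 and 16.7 in DKO bodies, against 76.4 and 50.1 in DKO ESC, lower in the body library of each replicate (-1.36 ± 0.13, 2.57-fold lower; limma, adjusted p = 0.0272). With no filter this call was lost (adjusted p = 0.0699), and leaving out a library other than DKO body replicate 1 lost it as well (adjusted p = 0.0603 to 0.158, limma). Ccnd1 and Ccnd2, the other D-type cyclins, gave -0.86 ± 0.17 (adjusted p = 0.0786) and -1.54 ± 0.32 (adjusted p = 0.0904, limma). In all 3 cases each DKO body library was below the DKO ESC library of its replicate. The 10 fibroblast markers summed to 23.2 and 36.5 in DKO bodies, against 55.9 and 256 in DKO ESC with none at 0, and the 8 primitive streak markers to 8.13 and 8.61, against 10.8 and 6.06 with 1 at 0 in each ESC library. In the MEF library labelled DKO, Ccnd2 stood at 130 FPKM, Ccnd3 at 53.4 and Ccnd1 at 8.7. In replicate 2 of DKO ESC they stood at 19.5, 50.1 and 48.6 FPKM. The part of feeder and streak cells in the differences of these 3 cyclins was not tested.

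In f/f cells 2 members rose and 7 fell, against 12% of all genes called, 8.13% up and 3.86% down. The members' share of increases was thus below that of all genes and their share of decreases above it. The decreases were in Mybl2, E2f1, Cdt1, Ccne1, Ccnd3, Mcm3 and Rrm2. Mybl2 stood at 50.8 and 48.3 in f/f bodies, against 125 and 386 in f/f ESC, and fell 4.36-fold (-2.13 ± 0.43, SE, n = 2 per group; limma, adjusted p = 0.0316). The body library lay below the ESC library in each replicate, with differences of -1.28 in replicate 1 and -2.97 in replicate 2. E2f1 stood at 22.9 and 12 in f/f bodies, against 33 and 27.9 in f/f ESC (-0.83 ± 0.18, limma, adjusted p = 0.0336). Cdt1, which loads the helicase at origins, stood at 63.1 and 51.2 in f/f bodies, against 95.5 and 96.6 in f/f ESC (-0.75 ± 0.13, adjusted p = 0.0234, limma). Ccne1, the gene of cyclin E1, stood at 64.4 and 51.8 in f/f bodies, against 103 and 91.9 in f/f ESC (-0.74 ± 0.13, adjusted p = 0.0231, limma). For E2f1, Cdt1 and Ccne1 the body library was below the ESC library of its replicate.

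Smaller decreases completed the set in f/f cells. Ccnd3 stood at 66.8 and 45.9 in f/f bodies, against 107 and 70.5 in f/f ESC (-0.64 ± 0.13, adjusted p = 0.0301, limma). Mcm3 stood at 121 and 115 in f/f bodies, against 156 and 173 in f/f ESC (-0.48 ± 0.11, adjusted p = 0.0433, limma). Rrm2 stood at 77.7 and 74.7 in f/f bodies, against 109 and 103 in f/f ESC (-0.47 ± 0.11, adjusted p = 0.0406, limma). For Ccnd3, Mcm3 and Rrm2 the body library was the lower one in each replicate. Cdk1, the mitotic kinase, stood at 41.3 and 51.5 in f/f bodies, against 30.7 and 37.8 in f/f ESC (0.43 ± 0.10, adjusted p = 0.0476), and Aurkb at 50.6 and 42.3, against 37.1 and 29.3 (0.48 ± 0.10, adjusted p = 0.031, limma). Both were higher in the body library of each replicate. Markers of other cells moved between these stages too. The 8 primitive streak markers summed to 138 and 102 in f/f bodies with none at 0, against 19 and 3.11 in f/f ESC with 1 at 0 in replicate 1. The 10 fibroblast markers summed to 33.2 and 86.5 in f/f bodies, against 40.6 and 295 in f/f ESC, with none at 0. The part of these cells in the f/f calls was not tested.

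These f/f calls depend on the filter, the scaling and single libraries. With no filter on low values 4 of the calls were made, 1 up and 3 down, against 747 up and 285 down of 19476 genes. The split of 2 up and 7 down became 1 up and 7 down with median-of-ratios scaling, 2 up and 5 down with quantile scaling, where Mcm3 (adjusted p = 0.0579) and Rrm2 (0.0709, limma) missed, and 0 up and 8 down with edgeR on reads, where Cdk1 (adjusted p = 0.0748) and Aurkb (0.0555) missed and Ccnd2 passed (0.0445); over all genes the split was 1014 up and 481 down, 837 and 697, 676 and 562, and 802 and 745 under the same 4 settings. Leaving out any 1 f/f library, which leaves 1 library in that group, lost these calls, and leaving out either DKO ESC library lost most of them. Over the 8 fits without 1 library the difference stayed between -2.79 and -1.46 for Mybl2, -0.606 and -0.353 for Mcm3 and 0.425 and 0.526 for Aurkb. How many calls over all genes were lost in these fits is not given here. By group, the licensing and fork genes had a median of -0.18, the transcription factors -0.73, the mitotic kinase and checkpoint group 0.05 and the centromere group 0.09, against 0.06 over all genes. Of 122 other pathway genes 3 rose and 4 fell, against 8.13% of all genes called up and 3.86% down. Dut, which removes dUTP, rose by 0.78 ± 0.18 (adjusted p = 0.0426), E2f6 by 0.67 ± 0.13 (adjusted p = 0.0291) and Cdkn1b, the gene of p27, by 0.61 ± 0.15 (adjusted p = 0.0484, limma). Lin52, a subunit of MuvB, fell by 0.82 ± 0.18 (adjusted p = 0.0363), Ticrr by 0.80 ± 0.12 (adjusted p = 0.0169), E2f8, a repressive E2F, by 0.72 ± 0.11 (adjusted p = 0.0189) and Rfc5 by 0.50 ± 0.12 (adjusted p = 0.0493, limma). In DKO cells E2f8 was the 1 other pathway gene of 122 called, against 0.826% of all genes, with a fall of 0.89 ± 0.11 (adjusted p = 0.0363, limma).

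The difference between the genotypes' responses was tested itself. None of the 44 members passed, nor did any of 12466 genes (0%), in limma or in edgeR; 6 members had an unadjusted p under 0.05, against 13.7% of all genes, and the smallest adjusted p of a member was 0.192. Ccnd3 differed by -0.72 ± 0.18 (adjusted p = 0.192), Ccnd1 by -0.89 ± 0.24 (adjusted p = 0.21), Ccne1 by 0.55 ± 0.18 (adjusted p = 0.281) and E2f1 by 0.71 ± 0.25 (adjusted p = 0.296, limma). Mybl2 had the largest estimate and the widest error (1.42 ± 0.61, adjusted p = 0.39, limma). The responses of the 2 genotypes are therefore not shown to differ for any member.

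MEF and day-20 cells had 1 library per group, so their differences have no replicate check and no test. A member is counted here when the ratio of FPKM + 1 was at least 2-fold, among 43 members with a mean FPKM of at least 1; E2f2 did not pass that filter, at 0.481 and 0.83 FPKM in the MEF libraries labelled DKO and f/f and 0.145 and 0.384 at day 20. Genotypes are those of the labels, which Kmt2d does not check. In bulk libraries, fewer cycling cells and less RNA per cycling cell cannot be told apart.

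Cyclin D1 was the member that separated the MEF libraries. Ccnd1 stood at 8.7 FPKM in the MEF library labelled DKO, against 57.2 FPKM in f/f, 5.99-fold lower. It was the 1 member of 43 past 2-fold, 0 up and 1 down, against 8.89% of all genes, 3.72% up and 5.17% down, a share below the background. Its family did not share this difference: Ccnd2 stood at 130 FPKM in the library labelled DKO, against 179 in f/f, and Ccnd3 at 53.4, against 52.4. The next lowest ratios were in Plk1, the polo-like mitotic kinase (16.1 FPKM in the library labelled DKO, against 28.2 in f/f), Mki67 (30.4, against 47.3), Cenpe, a kinetochore motor (12.4, against 18.1), and Rrm2 (30.5, against 43). The highest were in Cdk6 (14.3, against 7.95), Cdt1 (30.2, against 18.2), Mybl2 (10.4, against 6.53), Ccne1 (20.2, against 13.2) and Mcm6, a helicase subunit (60.6, against 42.9). In total 22 members were higher and 21 lower in the library labelled DKO. The members' median log2 ratio was 0.03, against 0.04 over all genes. Of the licensing and fork genes 9 of 10 were higher, with a median of 0.265 and 0 past 2-fold. The share of all genes higher in that library was not computed. With 1.5-fold as the limit 3 members were counted up and 3 down, against 22.2% of all genes, 10.7% up and 11.5% down, a share below the background.

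At day 20 the libraries differed more. Of 43 members 14 were at least 2-fold higher and 1 at least 2-fold lower in the library labelled DKO, against 18.7% of all genes, 8.26% up and 10.4% down, so the share counted higher was above the background and the share counted lower below it. The median log2 ratio was 0.56, against 0.04 over all genes. Mitotic genes made up most of the higher ones: 4 of 8 mitotic kinase and checkpoint genes, 3 of 4 in the group of A- and B-type cyclins with Cdk1, and 2 of 7 centromere and spindle genes, beside 4 of 10 licensing and fork genes. With a pseudocount of 5 in place of 1 the counts were 6 up and 1 down, against 9.21% of all genes, 4.14% up and 5.06% down.

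Cdt1 showed the largest of these ratios, at 24.9 FPKM in the day-20 library labelled DKO, against 5.36 FPKM in f/f (4.07-fold). Ube2c stood at 77.4 FPKM, against 19.2 (3.89-fold), and Tpx2, a spindle assembly factor, at 40.9 FPKM, against 9.87 (3.86-fold). Aurka, the centrosomal Aurora kinase that TPX2 activates, stood at 18.8 FPKM, against 5.81 (2.91-fold). In MEF the same 3 genes, Ube2c, Tpx2 and Aurka, differed by at most 1.25-fold between the genotypes. Cenpa stood at 29.6 FPKM in the library labelled DKO, against 9.96 in f/f (2.79-fold). The lowest ratio was again in Ccnd1, at 19.8 FPKM in the library labelled DKO, against 161 FPKM in f/f (7.77-fold lower). Ccne1 (8.8, against 12), Ccne2 (0.915, against 1.48), Cdc6, a licensing ATPase (0.899, against 1.34), and Ccnd3 (42.4, against 49.3) were next, all within 1.33-fold.

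Day 20 was then set against MEF within each genotype, a comparison that uses the same libraries again. In f/f cells most of the set was lower at day 20: 31 of 43 members were at least 2-fold lower and 1 at least 2-fold higher, against 12% of all genes, 6.31% up and 5.66% down. The median log2 ratio was -1.53, against -0.01 over all genes. All 8 mitotic kinase and checkpoint genes, all 7 centromere and spindle genes, all 4 genes of A- and B-type cyclins and Cdk1 and 8 of 10 licensing and fork genes were past 2-fold, and 0 of 8 G1 genes were counted lower. Ccna2 stood at 9.56 FPKM at day 20 in f/f, against 43 in f/f MEF (4.17-fold lower). Cdc20, the activator of the anaphase-promoting complex, stood at 12.1, against 53.3 (4.13-fold), and Ccnb1 at 13, against 54.8 (4.00-fold). Kif20a, a motor of cytokinesis, stood at 8.66, against 37.4 (3.97-fold), and Cenpe at 3.82, against 18.1 (3.96-fold). For each of these 5 genes the day-20 value was the lowest of the 4 MEF and day-20 libraries. At the other end Ccnd1 stood at 161 FPKM at day 20, against 57.2 in MEF (2.78-fold higher), and Ccnd3 (49.3, against 52.4), Ccne1 (12, against 13.2), Ccnd2 (144, against 179) and Tyms (22.4, against 30.5) were within 1.35-fold.

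In cells labelled DKO fewer members were past the limit. Of 43, 14 were at least 2-fold lower and 1 higher at day 20, against 7.71% of all genes, 4.08% up and 3.63% down, with a median of -0.72, against -0.02 over all genes. Replication genes led: Mcm5 stood at 8.89 FPKM at day 20, against 30.2 in MEF (3.15-fold lower), Cdc6 at 0.899, against 4.88 (3.09-fold), Mcm7 at 21.8, against 61.4 (2.73-fold) and Mcm3 at 16.1, against 44.1 (2.63-fold). Mybl2 stood at 2.71 FPKM, against 10.4 (3.08-fold). Of the licensing and fork group 6 of 10 were counted lower, and of the centromere and spindle group 3 of 7. Of the mitotic kinase and checkpoint group 1 of 8 was counted lower, and of the A- and B-type cyclin group 0 of 4. Ccnd1 stood at 19.8 FPKM at day 20, against 8.7 in MEF (2.15-fold higher). Tyms (30.8, against 26.5), Ccnd2 (150, against 130), Cdk6 (13.1, against 14.3) and Tpx2 (40.9, against 45.1) had the next highest ratios. The 12 members counted lower in both genotypes were 85.7% of the DKO list and 38.7% of the f/f list. The overlap over all genes was not computed, and 31 of the 43 members were on the f/f list. With a pseudocount of 5 the DKO counts were 0 up and 6 down, against 2.67% of all genes, 1.56% up and 1.12% down. With a 1.5-fold limit they were 1 up and 28 down, against 23.2% of all genes, 11.1% up and 12.1% down. The difference between the genotypes was not tested, since each rests on 1 library.

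**Figure D4:**
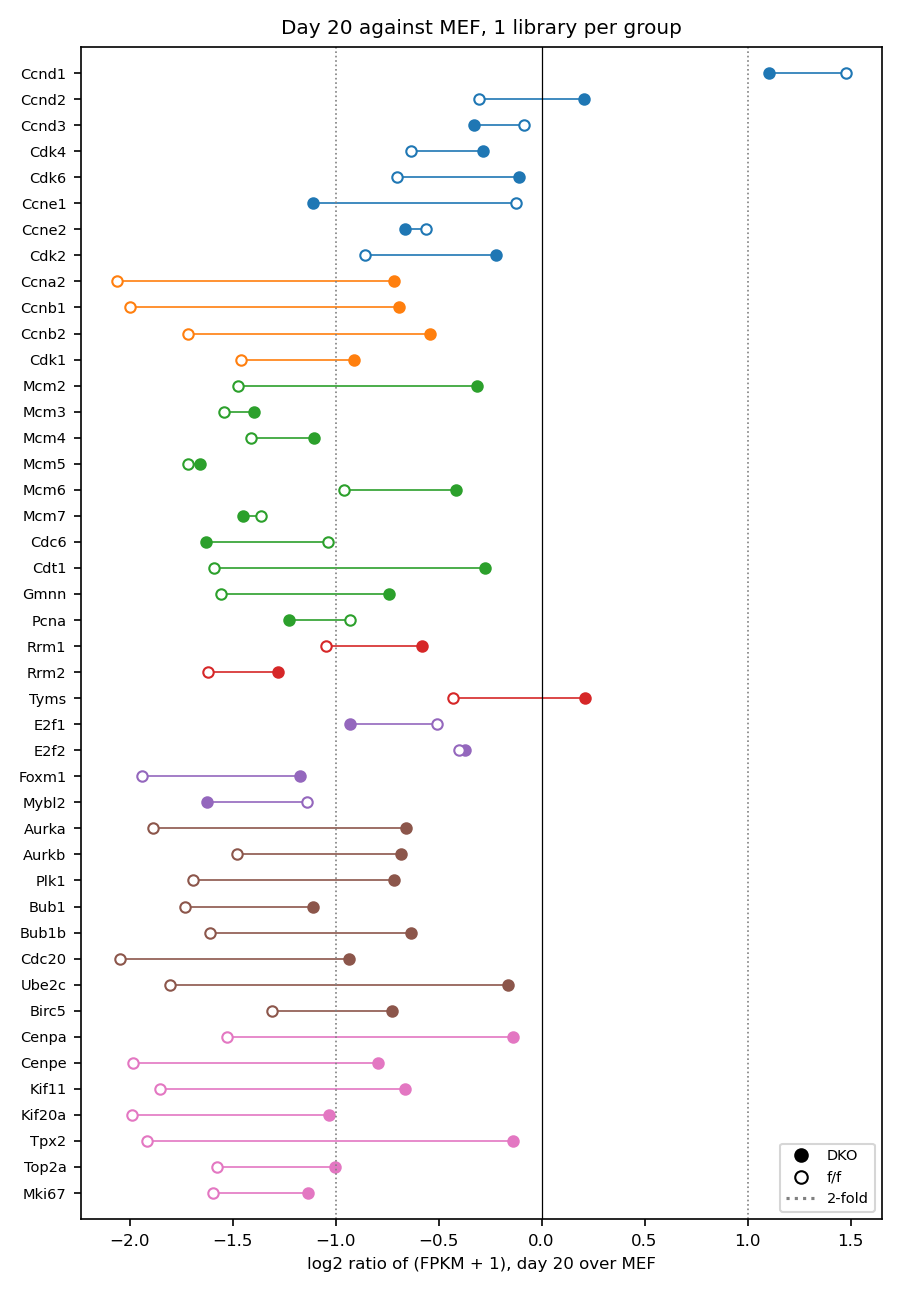
Log2 ratio of FPKM + 1 at day 20 over MEF for the 44 members, 1 library per group; filled circles are DKO, open circles f/f, a line joins the genotypes, colours are the groups of genes, and dotted lines mark 2-fold. The mitotic kinase and the centromere groups have medians of -0.70 and -0.80 in DKO and of -1.71 and -1.85 in f/f, Mcm5 lies at -1.66 in DKO and -1.71 in f/f while its partner Mcm2 lies at -0.31 and -1.47, and Ccnd1 lies above 1 in both.

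Other genes of the pathways were counted in the same way. Of 124 measured, 23 were at least 2-fold higher and 3 lower in the day-20 library labelled DKO than in f/f, against 8.26% of all genes up and 10.4% down. At day 20 against MEF 36 were lower and 0 higher in DKO, where 3.63% of all genes were counted down and 4.08% up. In f/f 72 were lower and 2 higher, where 5.66% were counted down and 6.31% up, the 72 including all 22 spindle, cytokinesis and condensin genes, of which 4 of 22 were counted lower in DKO. Of 7 CDK inhibitors, singled out after their values were seen, 1 was counted higher and 3 lower in the day-20 library labelled DKO. Cdkn2a, the gene of p16 and ARF, stood there at 239 FPKM, against 43.7 in f/f. Cdkn1a, the gene of p21, stood at 21.7, against 109, Cdkn1c at 0.22, against 41.9, and Cdkn2c at 11, against 27.8. In the MEF library labelled DKO Cdkn2a stood at 263, against 136 in f/f, and Cdkn1c at 0.619, against 13.7. Cdkn2c stood there at 14.4, against 21.5, and Cdkn1a at 14.5, against 15.2. Fibroblast markers (10 genes, none at 0) summed to 10023.3 FPKM in the day-20 library labelled DKO, against 13667.5 in f/f, and to 3014.6 FPKM in the MEF library labelled DKO, against 3542.5 in f/f. Epithelial markers (6 genes) summed to 0.243 FPKM in the day-20 library labelled DKO with 4 at 0, against 42.9 in f/f with none at 0. The part of these cell types in the cell cycle differences was not tested.

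MEF were also set against replicate 2 ESC, which share the FPKM unit. In cells labelled DKO 2 members were at least 2-fold higher and 24 lower in MEF, of 44, against 34.5% of all genes, 16.4% up and 18.1% down; in f/f 1 was higher and 20 lower, against 40%, 18.9% up and 21.1% down. Mybl2 stood at 10.4 FPKM in MEF, against 229 in ESC, in DKO (20.1-fold lower), and at 6.53, against 386, in f/f (51.4-fold lower). E2f2 stood at 0.481 FPKM in MEF, against 12.4 in ESC, in DKO, and at 0.83, against 3.83, in f/f. Ccnd2, the gene of cyclin D2, was the exception in both genotypes: it stood at 130 FPKM in MEF, against 19.5 in ESC, in DKO (6.40-fold higher), and at 179, against 18.6, in f/f (9.16-fold higher). Ccnd1 differed in direction, at 8.7 FPKM in MEF, against 48.6 in ESC, in DKO and 57.2, against 35, in f/f. In DKO the lowest ratios after Mybl2, E2f2 and Ccnd1 were in Plk1 (16.1 FPKM in MEF, against 70 in ESC) and Rrm2 (30.5, against 121), and the highest beside Ccnd2 included Ccnd3 (53.4, against 50.1) and E2f1 (24.8, against 23.5). In f/f the next lowest ratios were in Ccne1 (13.2 FPKM in MEF, against 91.9 in ESC), Cdt1 (18.2, against 96.6), Mcm3 (34, against 173) and Mcm7 (51.4, against 231). Cdk6 was the second member counted higher in DKO MEF (14.3, against 6.05), while Foxm1 stood at 25.8, against 23.6, in DKO and 30.7, against 21.3, in f/f. Ccne2 (2.65 in MEF, against 1.73 in ESC) and Cdk4 (237, against 215) were also among the 5 highest ratios in f/f.

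Levels in ESC (replicate 2), MEF and day 20, each 1 FPKM library per genotype, were put in order, with bodies left out. The order was ESC, then MEF, then day 20 for 37 of 44 members in DKO and for 38 of 44 in f/f. The share of all genes in this order was not computed, so it is not shown to be particular to the members. The exceptions were G1 genes for the most part: Ccnd1, Ccnd2, Ccnd3 and Cdk6, with Tyms, E2f1 and Foxm1, in DKO, and Ccnd1, Ccnd2, Cdk4, Cdk6, Ccne2 and Foxm1 in f/f. The members' share of the summed FPKM of a library was 0.888% in replicate 2 of DKO ESC, against 0.816% in f/f ESC. In replicate 2 of bodies it was 0.789% in DKO, against 0.696% in f/f. It was 0.447% in the MEF library labelled DKO, against 0.496% in f/f. At day 20 it was 0.278% in the library labelled DKO, against 0.241% in f/f. At day 20 the G1 group alone summed to 398 FPKM of 1154.9 in the library labelled DKO and to 534 FPKM of 959 in f/f.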

How the data were processed

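Poly(A) RNA libraries were made with the Illumina TruSeq kit, per the labels' protocols. For replicate 1 of ESC and bodies the authors deposited each transcript's read count and its RPKM, and for all other RNA libraries each gene's FPKM (per the file headers). As tools and build, the submitters' notes on processing list mm9, bedtools 2.16 and SICER 1.1 for replicate 1, and CASAVA 1.8.2 and SICER for the rest; the aligner and strand setting are not stated there. Chromatin and input libraries (24 samples) were left out.

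Transcripts were matched to genes by accession through a GRCm38.p6 gene table (28436 of 29082 matched; 24203 of 24284 FPKM genes), each gene taking its most-read transcript; for Tyms that was a non-coding record. Low genes stepped by whole reads (89.8% to 91.6% within 0.02 reads), which gave the depth behind the deposited FPKM; reads called "about" rest on it. Depth limits counting error only.

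limma 3.58.1 (R 4.3.3; two-sided, mean-variance trend) was fitted to log2(value + 1) over the 8 ESC and body libraries, with 4 groups and the replicate as a block, for 12466 genes with a mean of at least 1 (3 residual and 3.27 prior degrees of freedom), at a Benjamini-Hochberg threshold of 0.05. This scale understates changes of low genes. Same-numbered libraries deviated together from their group means (correlations 0.864 to 0.954), hence the block. Alternatives were other pseudocounts, filters and scalings, summed transcripts, edgeR 4.0.16 on reads (the deposited count in replicate 1, estimated from FPKM in replicate 2) and leaving out each library. The code was tested on simulated data. In full are named the members called in a contrast, the largest and smallest genotype difference of each group, the 5 highest and 5 lowest ratios of each MEF and day-20 comparison, and the 4 largest calls per direction among other pathway genes. The members, gene lists and markers were chosen with earlier results of these data known. MEF against ESC was added after seeing the data. Comparisons that share a group share its libraries.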

Additional observations from a re-analysis of the deposited data

How the results depend on the processing

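The 13 member calls kept their direction under all alternatives run, and none reversed. With pseudocounts of 0.1 and 5 and with summed transcripts the counts of called members were as reported. With no filter on low values, 0 members were called between DKO and f/f in ESC, 1 in bodies, 0 between bodies and ESC in DKO and 4 in f/f. Of 19476 genes, 55 were then called up and 152 down in ESC, and 34 up and 255 down in bodies. Between bodies and ESC 0 were called up and 1 down in DKO, and 747 up and 285 down in f/f. With a mean of at least 5, 1 member was called in bodies, against 47 up and 280 down of 8756 genes. Without the replicate block, 0 members were called in each of these 4 comparisons. Of 12466 genes, 0 were then called up and 2 down in bodies. Between bodies and ESC in DKO 0 were called up and 1 down, and in the other comparisons 0. Leaving out each library gave 0 to 3 called members in ESC, 0 to 3 in bodies, 0 to 1 between bodies and ESC in DKO and 0 to 9 in f/f, and 0 for the difference of the responses. In the comparisons with 1 library per group, a 1.5-fold limit gave 6 members in MEF and 29 for day 20 against MEF in DKO, and a pseudocount of 5 gave 7 between genotypes at day 20 and 6 for day 20 against MEF in DKO. With 2 libraries per group, in tables counted differently, small differences are not resolved. E2f2 rests on 16 to 114 reads in the MEF and day-20 libraries.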
